A study of Homo sapiens with 6 samples.

Results

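Isolated constitutive DNase regions are stretches of accessible chromatin that were called in every library of the study and had no other such region nearby. The cells were A549, an established human line grown from a lung adenocarcinoma, and the assay was DNase-seq, which digests open chromatin with DNase I and sequences the released ends. Dex cells had received 100 nM dexamethasone for 1 h, and EtOH cells had received 0.02% ethanol, the vehicle, for 1 h. There were 3 Dex and 3 EtOH libraries, numbered 1 to 3 in the labels, which do not say whether they came from separate cultures, so p-values over libraries measure only the spread between these libraries. Peaks of all 6 libraries that shared at least 1 bp were merged into 81216 regions, of which 39934 had a peak in all 6 libraries and are called constitutive. A constitutive region counted as isolated when no other one lay within 100 kb on the same chromosome, measured centre to centre. This rule found 1917 regions, 4.80% of the constitutive regions and 2.36% of all merged regions. The other 38017 constitutive regions served for comparison, together with the 20199 among them whose nearest constitutive region lay 10 to 100 kb away.

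DNase hypersensitive sites are short stretches where nucleosomes are displaced and bound factors make the DNA accessible to the nuclease. They include promoters, enhancers and insulators, and many form clusters around active genes, while gene-poor stretches of the genome hold few. The glucocorticoid receptor, which dexamethasone activates, binds mostly at chromatin that is already accessible and opens some further sites.

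The isolated regions were chosen by their calls in all 6 libraries and by their distances, so both are given as a description. The nearest constitutive region lay at a median of 157.6 kb, with quartiles of 122.6 and 245.9 kb, against a median of 10.9 kb for the other constitutive regions. More than 200 kb separated 667 isolated regions from any constitutive neighbour, more than 500 kb separated 164, more than 1 Mb separated 56 and more than 2 Mb separated 14. The 3 regions just inside the limit had their neighbour at 100.05, 100.06 and 100.06 kb, and the 3 just outside it at 99.96, 99.90 and 99.88 kb. Although the isolated regions were 4.80% of the constitutive regions, the stretches nearer to them than to any other constitutive region took 992 Mb, which was 33.0% of the 3006 Mb spanned by constitutive regions. On the Y chromosome they took 83.4% of 59.2 Mb. Assembly gaps and stretches where reads cannot be placed were not taken out of these spans or of the distances. On 14 regions the distance was known on 1 side only, since they were the first or last of their chromosome.

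Many isolated regions followed each other along a chromosome. Runs of consecutive constitutive regions that were all isolated held 1284 of the 1917 regions (67.0%), in 249 runs of 2, 111 runs of 3 and 89 longer ones, and the other 633 regions stood singly between clusters. The longest run had 13 regions over 7.87 Mb of the X chromosome (chrX:55743841-63615745 in hg19). A further run on the X chromosome held 10 regions over 13.9 Mb (chrX:82068646-95940202). A run on chromosome 2 also held 10, over 8.11 Mb (chr2:136742555-144857983), and 1 on chromosome 7 held 9 over 3.31 Mb (chr7:82072309-85380010). Assembly gaps and stretches where reads cannot be placed were not taken out of these lengths either. The constitutive neighbour of an isolated region already meets the distance rule on the side they share. The rule thus favours runs in part by its construction. The share in runs that the rule alone would give was not computed. The 67.0% is therefore a description, and clustering was not tested.

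The share of constitutive regions that were isolated differed widely between chromosomes. It was highest on the Y chromosome, with 19 of 59 (32.2%, 95% Wilson interval 21.7 to 44.9%), and on chromosome 4, with 155 of 1048 (14.8%, 12.8 to 17.1%). The X chromosome followed with 118 of 987 (11.96%, 10.1 to 14.1%) and chromosome 13 with 64 of 556 (11.5%, 9.12 to 14.4%). It was lowest on chromosome 17, with 20 of 2698 (0.741%, 0.480 to 1.14%), and on chromosome 19, with 20 of 2343 (0.854%, 0.553 to 1.31%). The intervals cover counting error only. This order ran with the density of constitutive regions, which was 5.49 per Mb on chromosome 4 and 5.80 per Mb on chromosome 13, against 33.3 per Mb on chromosome 17 and 39.7 per Mb on chromosome 19. The density enters the rule, so no test was made.

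**Figure D1:**
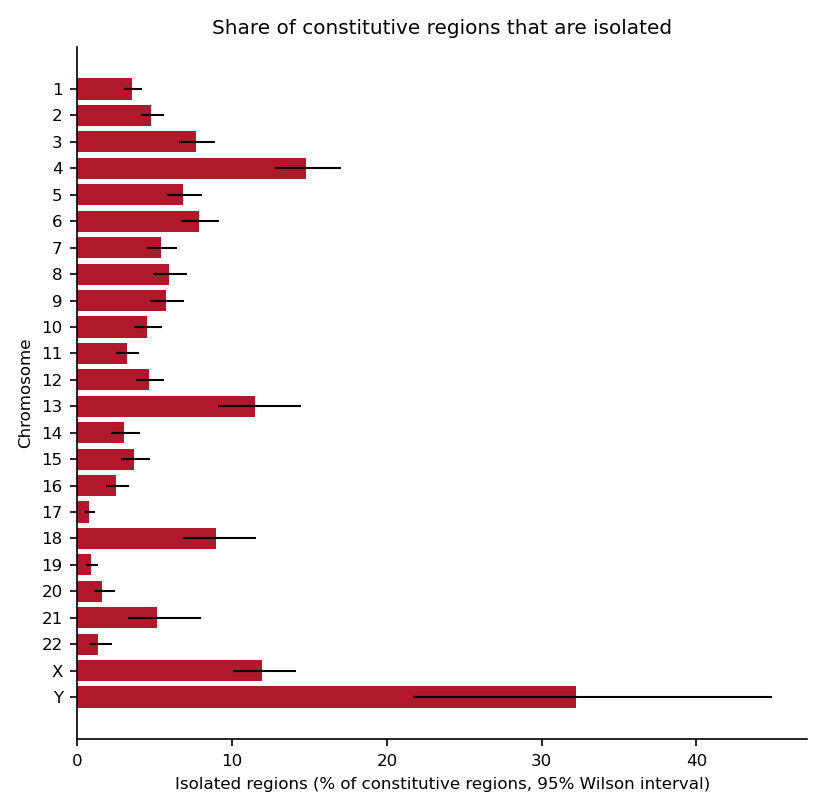
Share of each chromosome's constitutive regions that were isolated, in percent, with 95% Wilson intervals as black lines. Chromosome 4 (14.8%), chromosome 13 (11.5%) and the sex chromosomes stand above the rest, and chromosomes 17 and 19 have under 1%.

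Around the isolated regions, regions called in only some libraries were also sparser. A median of 2 regions called in 1 to 5 libraries lay within 100 kb of an isolated region, against 5 for the other constitutive regions. No region of any kind lay within 100 kb of 408 isolated regions (21.3%, Wilson interval 19.5 to 23.2%). Within 10 kb, 1360 isolated regions (70.9%) had no region of any kind, against 12135 of the other constitutive regions (31.9%), all of them among the 20199 spaced 10 to 100 kb (60.1%), since closer ones fail by definition. A region called in 3 of 3 Dex and 0 of 3 EtOH libraries lay within 100 kb of 58 isolated regions (3.03%) and of 4867 others (12.8%). A region called in 0 of 3 Dex and 3 of 3 EtOH libraries lay within 100 kb of 67 isolated regions (3.50%) and of 2695 others (7.09%). Of the 4038 partly called regions within 100 kb of an isolated region, 60 (1.49%) were called in the Dex libraries alone and 66 (1.63%) in the EtOH libraries alone. Among all 41282 partly called regions, those numbers were 897 (2.17%) and 538 (1.303%). These counts come from the same calls as the rule and were not tested.

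The deposited lists give for each peak a fold enrichment at its summit over the caller's background estimate, with a p-value. From both together, the number of reads piled up at the summit and the background could be read back, because MACS2 computes the fold as reads plus 1 over background plus 1 and the p-value from a Poisson tail. Whole numbers of reads met the deposited −log10 p within 0.0001 for all but 1 of the peaks of the 6 libraries, and that 1 lay in no isolated region. Backgrounds had a lowest value per library, from 2.175 to 2.384 reads, and every background above it was a multiple of 0.02 reads within 0.003. These values are counts of fragments piled up at a summit, not library totals, and the total depth of the libraries is not known.

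Isolated regions had fewer summit reads than the other constitutive regions in every library. The median was 36, 40 and 36 reads in Dex libraries 1 to 3 and 35, 36 and 39 in EtOH libraries 1 to 3. For the other constitutive regions it was 54, 55 and 48 in the Dex libraries and 52, 55 and 54 in the EtOH libraries. No library of either treatment had an isolated median above 40 or a median of the others below 48. Over libraries the isolated regions averaged 37.0 ± 2.0 reads and the others 53.0 ± 2.7 (SD, n = 6 each), a difference of −16.0 ± 2.5 that was negative in 6 of 6 libraries (exact two-sided sign-flip permutation p = 0.03125, the smallest that 6 libraries allow). Against the others spaced 10 to 100 kb, with 49.0 ± 2.4 reads (SD, n = 6), the difference was −12.0 ± 1.7, also negative in 6 of 6 libraries (exact p = 0.03125). Both values rest on the same regions in each library, so p measures library spread only. Each region also had to pass the caller's threshold over its own background in all 6 libraries. A site over a lower background could pass with fewer reads, so the difference in reads depends on the calls in part by its construction. How large that part is was not tested. Benjamini-Hochberg adjustment over the 26 comparisons of this kind left each of the 20 that reached 0.03125 at 0.0406.

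**Figure D2:**
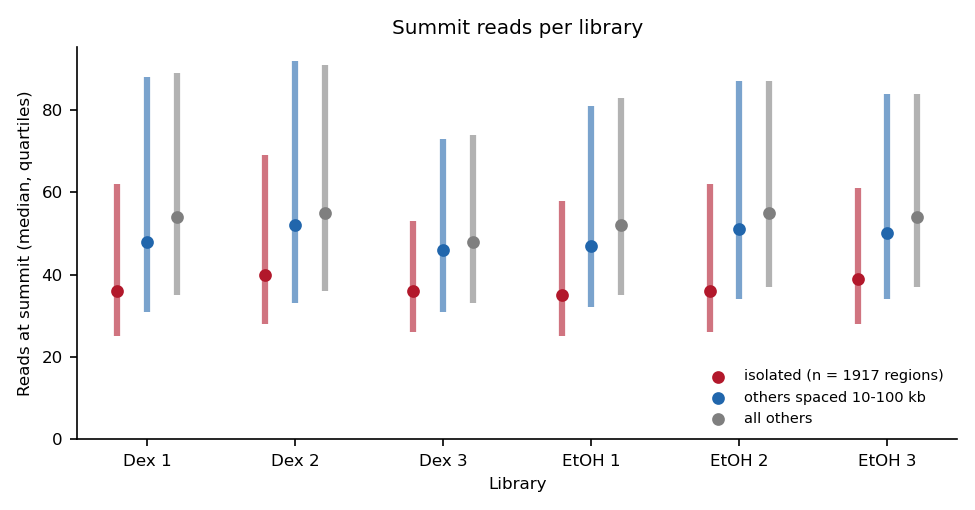
Summit reads per region in each library, with points at the median and bars over the quartiles, for isolated regions (red), other constitutive regions spaced 10 to 100 kb (blue) and all other constitutive regions (grey). The isolated median lies below both others in all 6 libraries, while the quartile ranges overlap.

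The difference in reads held within chromosomes. On 24 of 24 chromosomes the isolated regions had a lower median than the other constitutive regions of that chromosome, at 30.1 to 43.3 reads against 37.6 to 70.8. On chromosome 17 the median was 34.6 reads at isolated regions and 70.8 at the others, and on the X chromosome it was 40.3 at isolated regions and 43.7 at the others. A549 cells have abnormal chromosome numbers, so reads on different chromosomes need not stand for equal numbers of copies.

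The background around isolated regions was lower as well. It was 3.25 ± 0.13 reads at isolated regions, against 5.37 ± 0.17 at the other constitutive regions and 4.50 ± 0.09 at those spaced 10 to 100 kb (SD of library medians, n = 6 each). In 21.4 ± 2.5% of isolated regions it was at the lowest value of the library, against 4.70 ± 0.43% of the others (SD, n = 6 each). Both differences had the same direction in 6 of 6 libraries (exact p = 0.03125), but the background includes reads of neighbouring sites and so depends on spacing in part by its construction. Where the background was at the lowest value in all 6 libraries, which held for 186 isolated regions (9.70%) and 565 others (1.49%), isolated regions had 24.3 ± 1.2 reads and the others 24.7 ± 0.5 (SD of library medians, n = 6 each). That difference of −0.33 ± 1.03 reads was within the spread between libraries (exact two-sided sign-flip permutation p = 0.75). Both medians lay below the 37.0 and 53.0 reads of the whole sets, so this condition kept mostly regions with few reads in each. It therefore cannot show whether the sets differ in reads at a like background elsewhere.

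The fold enrichment, which sets the reads against the background, placed the isolated regions differently. The median fold was 8.95 ± 0.38 at isolated regions and 8.56 ± 0.22 at the other constitutive regions (SD, n = 6 each). Ranked by fold among all constitutive regions of its own library, the median isolated region stood at percentile 54.1, 56.8 and 53.4 in Dex libraries 1 to 3 and 51.2, 53.4 and 55.8 in EtOH libraries 1 to 3. The others stood between 49.7 and 49.9 in all 6. The mean difference was 4.35 ± 2.05 percentile points, positive in 6 of 6 libraries (exact p = 0.03125). The fold is set over a background that includes reads of neighbouring sites, so this excess depends on spacing in part by its construction. Within chromosomes the isolated regions stood higher by fold percentile on 15 of 24. Against the others spaced 10 to 100 kb, at percentile 58.5 ± 0.2 (SD, n = 6), the sign turned, with −4.40 ± 1.80 points and isolated regions lower in 6 of 6 libraries (exact p = 0.03125). Ranked by −log10 q the isolated regions stood at percentile 38.9 ± 2.2 and the others at 50.5 ± 0.1, and ranked by summit reads the isolated regions stood at 28.9 ± 2.5 and the others at 51.0 ± 0.4 (SD, n = 6 each). The direction of a comparison of strength thus depended on the measure and on which neighbours the other regions had.

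Values by spacing show where these measures part. Over all constitutive regions, the median number of summit reads was 61.3 where the nearest constitutive region lay within 1 kb, 52.2 at 10 to 20 kb, 48.2 at 20 to 50 kb and 43.5 at 50 to 100 kb. Among isolated regions it was 38.4 at 100 to 200 kb (1250 regions), 35.0 at 200 to 500 kb (503 regions), 30.2 at 500 to 1000 kb (108 regions) and 36.9 beyond 1 Mb (56 regions). The lowest and highest library were 27.5 and 34.5 reads at 500 to 1000 kb and 32.5 and 41.5 beyond 1 Mb, so those outermost classes overlapped. The background had a step at 5 kb, with 7.19 reads at a spacing of 4 to 5 kb and 5.17 at 5 to 6 kb, where summit reads were 54.8 and 52.6. Across the same step the fold percentile was 31.0 and 51.3. It was 58.8 at 50 to 100 kb, and among isolated regions 55.8, 52.8 and 41.7 in the successive classes up to 1 Mb. Beyond 1 Mb it was 56.1, with libraries from 45.4 to 62.2.

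**Figure D3:**
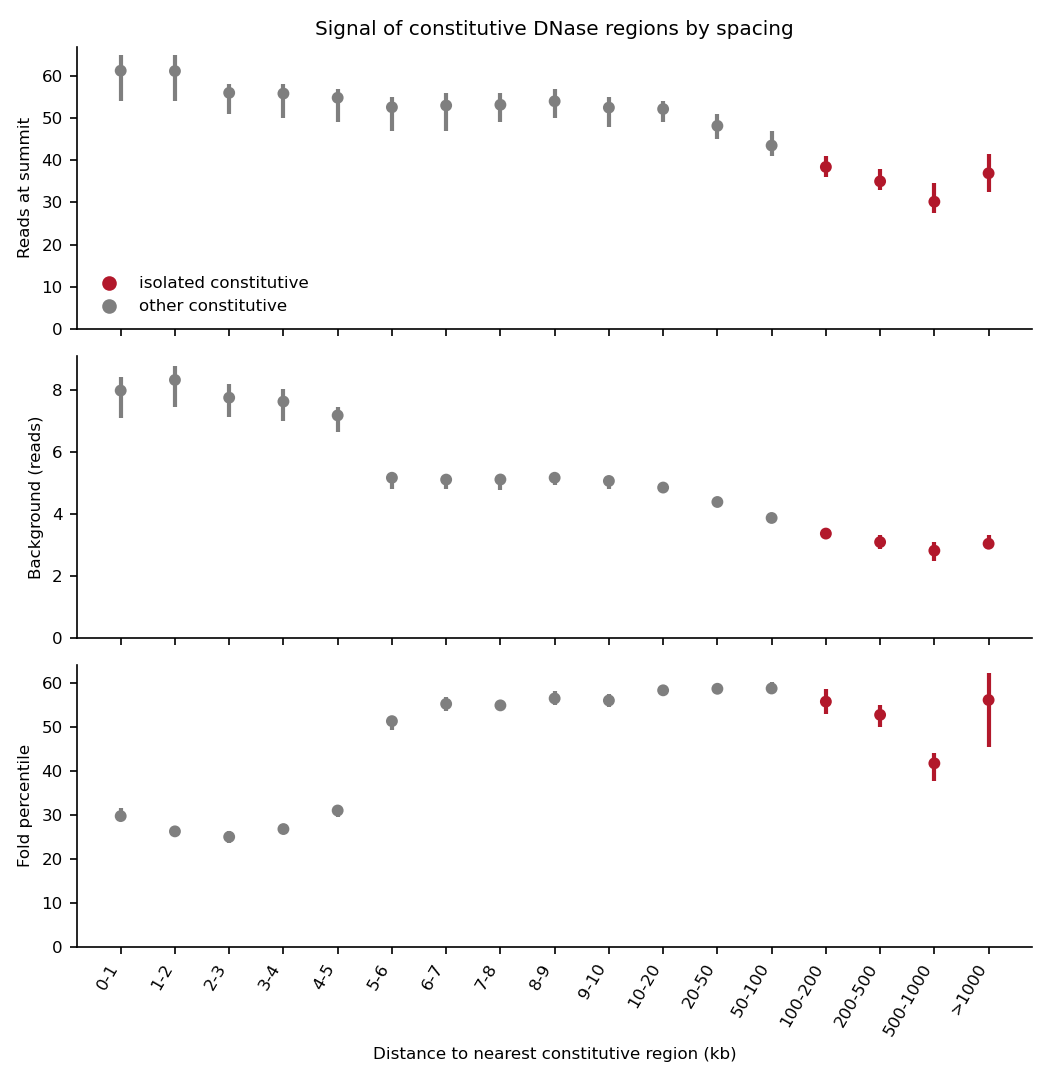
Median summit reads, background and fold percentile of constitutive regions by distance to the nearest constitutive region (kb), with points at the mean of 6 library medians and lines from the lowest to the highest library, isolated regions in red. Reads and background are lower at wide spacing, and the fold percentile has a step between 4 to 5 kb (31.0) and 5 to 6 kb (51.3).

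Isolated regions varied widely among themselves. Averaged over 6 libraries, their fold percentile ran between 2.31 and 100.0, with quartiles of 33.7 and 76.5. Percentiles 0 to 25 of the constitutive scale held 255 isolated regions, percentiles 25 to 50 held 671, percentiles 50 to 75 held 491, percentiles 75 to 90 held 265 and the top 10% held 235. Median summit reads in these classes were 23.3, 28.0, 41.3, 66.7 and 93.8, and median merged widths 444, 367, 506, 748 and 718 bp. In the class of percentile 25 to 50 the background was at its lowest value in 35.4% of values, against 1.63% in the top class. Within each class the other constitutive regions had more reads at nearly the same fold, for example 39.8 reads between percentile 25 and 50 and 116.2 in the top class. Between percentile 25 and 50 the median background was 2.67 at isolated regions and 4.35 at the others. By the formula of the fold, a lower background at a like fold means fewer reads. These values thus restate the difference in background and are no further result about reads.

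The ends of the scale were occupied unevenly. In a single library, 13.0 ± 0.7% of isolated regions were among the top 10% of constitutive regions by fold, against 9.85 ± 0.04% of the others (SD, n = 6 each, exact two-sided sign-flip permutation p = 0.03125). Of the others spaced 10 to 100 kb, 13.4 ± 0.1% were in the top 10% (exact p = 0.219). The bottom 10% held 4.73 ± 0.59% of isolated regions and 10.3 ± 0.03% of the others (exact p = 0.03125), and 5.34 ± 0.27% of those spaced 10 to 100 kb (SD, n = 6 each, exact p = 0.0625). These shares rank the same fold, whose background depends on spacing in part by its construction.

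**Figure D4:**
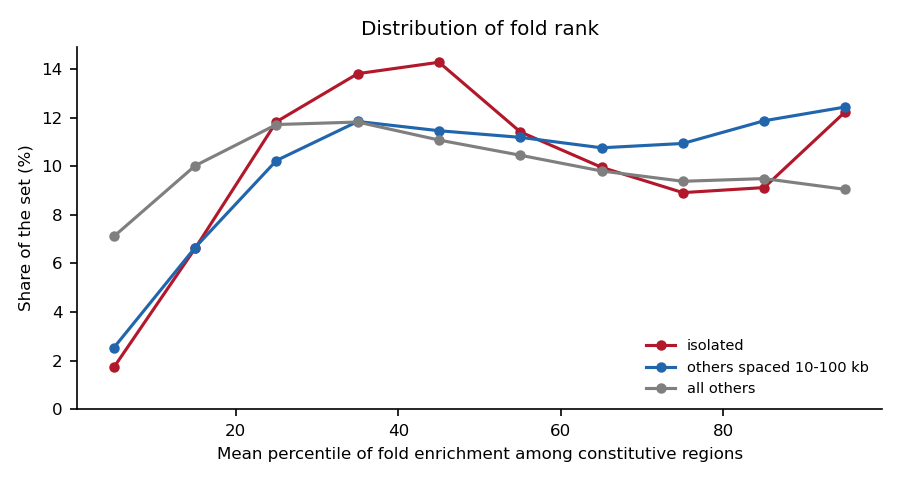
Share of each set (percent) by its mean percentile of fold among all constitutive regions, in steps of 10 percentiles, for isolated regions (red), others spaced 10 to 100 kb (blue) and all others (grey). Isolated regions are few at the bottom (1.72%), most frequent between percentiles 30 and 50 and again raised in the top step (12.3%).

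The isolated region with the highest mean percentile lay on the X chromosome (chrX:136520323-136520647, 325 bp), with the nearest constitutive region 386 kb away. Its summit held 90, 102 and 92 reads in Dex libraries 1 to 3 and 113, 104 and 93 in EtOH libraries 1 to 3, over a background of 2.74. Its fold was 26.7 ± 0.8 (SD, n = 6), and all 6 summits fell within 9 bp. By summit reads alone it stood at percentile 82.6.

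The next, on chromosome 14 (chr14:88237489-88237901, 413 bp), had far more reads. It held 174, 175 and 128 reads in Dex libraries 1 to 3 and 168, 177 and 172 in EtOH libraries 1 to 3, over a background of 5.60, and its fold was 25.2 ± 1.2 (SD, n = 6). Dex library 3 was lowest there, and the treatments overlapped. It was 2.30 Mb from a constitutive region on 1 side and 222 kb on the other. The 8 regions that followed had mean folds of 19.2 to 20.9 and mean reads of 85.2 to 118.3. They lay on chromosome 4 (chr4:99064375-99064955), chromosome 1 (chr1:170043557-170044134 and chr1:74663598-74664221), chromosome 2 (chr2:210867043-210867930 and chr2:169746722-169747206), chromosome 3 (chr3:45429703-45430253), chromosome 7 (chr7:124569769-124570316) and chromosome 6 (chr6:8435336-8436160). For the treatment difference in fold, the lowest adjusted p among these 10 was 0.884 (limma, Benjamini-Hochberg).

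The weakest isolated region by fold lay on chromosome 1 (chr1:170633286-170634302, 1017 bp). It held 23, 28 and 27 reads in Dex libraries 1 to 3 and 29, 29 and 26 in EtOH libraries 1 to 3, and its fold was 4.12 ± 0.18 (SD, n = 6). Its summits were spread over 783 bp. A region on chromosome 9 (chr9:140779020-140779326) was also among the 6 weakest by fold, at 4.74 ± 0.21 (SD, n = 6), with many more reads. It held 57, 68 and 58 reads in the Dex libraries and 64, 60 and 59 in the EtOH libraries, over a background of 12.1, and stood at percentile 59.0 by summit reads. The other 4 weakest had mean folds of 4.32 to 4.74 and mean reads of 17.8 to 31.2 (chr2:393797-394324, chr3:72388005-72388806, chr14:29235585-29236181 and chr2:223289057-223289750).

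The most isolated region lay on chromosome 4 (chr4:134070157-134070531, 375 bp), with constitutive neighbours 4.06 and 4.90 Mb away and no region of any kind within 921 kb. It held 59, 62 and 56 reads in Dex libraries 1 to 3 and 49, 53 and 50 in EtOH libraries 1 to 3, over a background of 4.87. All 3 Dex values were above all 3 EtOH values, but the fold difference of 0.12 ± 0.11 (log2, SE) had an adjusted p of 0.904 (limma). Its fold was 9.51 ± 0.61 (SD, n = 6), at mean percentile 59.7. It had more reads than the isolated median in each of the 6 libraries.

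Others among the 10 most isolated differed from it. A region on chromosome 5 (chr5:27472140-27472521) held 36, 39 and 52 reads in the Dex libraries and 41, 32 and 43 in the EtOH libraries. Its background of 2.65 was close to the lowest the caller used, and its mean percentile was 74.2. Its distance of 3.96 Mb was 903 kb when EtOH library 2 was left out, as a region called in the 5 other libraries then counted as constitutive. A region on chromosome 18 (chr18:39534856-39535476), 2.11 Mb from its nearest neighbour, was the strongest of the 10. It held 62, 81 and 57 reads in the Dex libraries and 63, 70 and 69 in the EtOH libraries, at mean percentile 95.5, and its 6 summits lay within 8 bp.

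A pair of neighbours on the X chromosome, 3.01 Mb apart, were both among these 10. The one at the higher position (chrX:95939532-95940202) held 67, 65 and 38 reads in the Dex libraries and 57, 47 and 59 in the EtOH libraries. The one at the lower position (chrX:92928173-92928889) held 29, 25 and 14 reads in the Dex libraries and 26, 19 and 30 in the EtOH libraries. Dex library 3 was lowest at both, and the treatments overlapped. A region on chromosome 16 (chr16:62259653-62259940) was weak in every library, with 21, 18 and 19 reads in the Dex libraries and 19, 21 and 22 in the EtOH libraries, all over the lowest background. Its distance of 2.85 Mb was 99.3 kb without Dex library 2.

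The remaining 4 of the 10 lay on chromosomes 13, Y, X and 1. The region on chromosome 13 (chr13:88323288-88323885) had 37 to 51 reads, and its distance of 3.68 Mb was 1844 kb without Dex library 1 and 140 kb without EtOH library 1. The region on the Y chromosome (chrY:7141590-7142307) had 30 to 50 reads. The region on chromosome 1 (chr1:104068008-104068871) had 32 to 50 reads, and its distance of 2.25 Mb was 723 kb without EtOH library 1. The region on the X chromosome (chrX:143268328-143268658) held 16, 18 and 15 reads in the Dex libraries, against 22, 41 and 28 in the EtOH libraries, with no overlap. Its fold difference of −0.78 ± 0.19 (log2, SE), the lowest of all isolated regions, had an adjusted p of 0.257 (limma, Benjamini-Hochberg over all constitutive regions).

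Width did not separate the isolated regions from the others beyond the spread between libraries. Peaks covered a median of 377.8 ± 18.0 bp of an isolated region and 374.3 ± 7.9 bp of another constitutive region (SD of library medians, n = 6 each, exact two-sided sign-flip permutation p = 0.5), and 389.2 ± 8.8 bp of those spaced 10 to 100 kb (SD, n = 6, exact p = 0.125). Merged over 6 libraries, isolated regions were 228 to 1864 bp wide with a median of 508 bp, against 481 bp for the others. A merged width above 1000 bp was found in 204 isolated regions (10.6%), in 7.97% of the others and in 10.5% of those spaced 10 to 100 kb.

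The widest isolated region, on chromosome 5 (chr5:98263716-98265579, 1864 bp), held 2 peaks in every library. Its strongest summit had 105, 118 and 87 reads in the Dex libraries and 94, 107 and 120 in the EtOH libraries. Its merged width was 1109 bp without EtOH library 2 and 1430 bp without Dex library 2. The next 5 were 1652 to 1687 bp wide with mean folds of 6.11 to 11.3 (chr2:107502425-107504111, chr12:42876586-42878261, chr2:136288043-136289704, chr15:83875624-83877283 and chr2:189156315-189157966). More than 1 peak in at least 1 library was seen in 363 isolated regions (18.9%), in 13.2% of the others and in 15.3% of those spaced 10 to 100 kb. Per library the share with 2 or more peaks was 7.26 ± 0.64% of isolated regions and 5.19 ± 0.44% of the others (SD, n = 6 each), higher in 6 of 6 libraries (exact p = 0.03125). Against the 6.11 ± 0.54% of those spaced 10 to 100 kb (SD, n = 6), it was also higher in 6 of 6 (exact p = 0.03125). Nearby sites called in all 6 libraries that no peak joins cannot be isolated, so these shares depend in part on the rule.

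Libraries agreed less on the isolated regions. The summit lay a median of 15.2 ± 0.4 bp from the median summit of the other 5 libraries at isolated regions and 13.0 bp at both sets of other regions (SD of library medians, n = 6), further in 6 of 6 libraries (exact two-sided sign-flip permutation p = 0.03125). All 6 summits spanned a median of 51 bp at isolated regions and 45 bp at the others, and more than 100 bp at 19.0% of isolated regions and 14.0% of the others. At fold percentiles 0 to 25 these medians were 107 bp at isolated regions and 60 bp at the others. In the top 10% both were 33 bp, and in the classes between, the isolated regions had the larger median. The fold percentile of a region had a median SD over libraries of 10.2 points at isolated regions and 7.98 at the others. Pearson's r of log2 fold across regions ran between 0.804 and 0.870 over the 15 pairs of libraries for isolated regions and between 0.866 and 0.909 for the others. It was lower for the isolated regions in 15 of 15 pairs. This correlation runs over regions, which share the libraries and their depth, and is a description. It also depends on the spread of fold within each set, which was not matched. Summit reads, which set the counting error of these measures, were lower at isolated regions, and their part in the difference was not tested.

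The study also asked what 1 h of dexamethasone did to accessible chromatin, and the isolated regions were compared for this. The rule required a call in all 3 Dex and all 3 EtOH libraries, so sites below the caller's threshold in either treatment had been left out, and what follows holds for sites open in both. As a set they did not differ between treatments beyond the spread between libraries. Their median fold percentile was 54.8 ± 1.8 in Dex and 53.5 ± 2.3 in EtOH libraries (SD, n = 3 each, exact two-sided permutation p = 0.5, where 3 against 3 cannot go below 0.1). Median summit reads were 37.3 ± 2.3 in Dex and 36.7 ± 2.1 in EtOH libraries (SD, n = 3 each, exact permutation p = 0.7). Peaks covered 0.899 ± 0.059 Mb of the isolated regions in Dex and 0.894 ± 0.022 Mb in EtOH libraries (SD, n = 3 each, exact permutation p = 1). Isolated regions took 3.65 ± 0.13% of the summit reads of all constitutive regions in Dex and 3.60 ± 0.11% in EtOH libraries (SD, n = 3 each, exact permutation p = 0.8). Over 12 such comparisons every Benjamini-Hochberg adjusted p was 1.

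Region by region, no isolated region passed an adjusted p of 0.05 for the fold with limma (Benjamini-Hochberg over all 39934 constitutive regions). Over all constitutive regions 11 did, all higher in Dex, which is 0.0275% higher and 0% lower, and these 11 had constitutive neighbours at 0.64 to 62.4 kb. The count over all constitutive regions was 0 without Dex library 1 or 2, 1 without Dex library 3, and 4 to 6 without an EtOH library. At an unadjusted p under 0.05, 149 isolated regions (7.77%) differed in fold, against a background of 7.14%. Of these, 86 (4.49%) were higher in Dex, against 3.54%, and 63 (3.29%) were lower, against 3.61%. All 3 Dex values lay above all 3 EtOH values at 103 isolated regions (5.37%), against 6.2% of all constitutive regions, and below them at 88 (4.59%), against 5.92%. A difference above 1.5-fold was found at 9 regions higher in Dex (0.469%), against 0.368%, and at 6 lower (0.313%), against 0.16%. Some of these shares lay above their background and some below it, and the differences were not tested. The last share rests on 6 regions. The median difference was 0.02 log2 units over the isolated regions and 0.00 over all constitutive regions, and 55.3% of isolated regions and 50.02% of all constitutive regions were higher in Dex. The residual SD between libraries of a treatment had a median of 0.17 log2 units at isolated regions and 0.15 over all constitutive regions.

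Ranked by summit reads instead of fold, a measure added after the data had been seen, 4 isolated regions passed an adjusted p of 0.05 with limma, all higher in Dex (0.209%). Over all constitutive regions 122 passed, 0.306% in either direction, with 0.293% higher and 0.0125% lower in Dex. With 1 library left out, 1 to 3 isolated regions and 38 (without EtOH library 2) to 147 (without Dex library 3) constitutive regions passed by reads, and 1 of the isolated regions was lower in Dex without Dex library 3. With the replicate number as a block, 14 isolated regions passed by reads, 11 higher and 3 lower in Dex, and 375 constitutive regions. By −log10 q, 3 isolated regions passed, all higher in Dex (0.156%), against 0.265% of all constitutive regions in either direction, 0.248% higher and 0.0175% lower. These shares lay below those over all constitutive regions, and the difference was not tested.

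Chromosome 3 held the clearest of the 4 (chr3:127022907-127023578, 672 bp), 151 kb from its nearest constitutive region. It held 86, 60 and 53 summit reads in Dex libraries 1 to 3, against 22, 27 and 25 in EtOH libraries 1 to 3, and its lowest Dex value was above its highest EtOH value. The difference was 1.43 ± 0.20 (log2 of quantile-normalised reads, SE; limma adjusted p = 0.000576). The background was higher in Dex too, at 5.56, 4.66 and 4.24, against 2.64, 2.60 and 2.82 in EtOH libraries, so the fold differed less. It was 11.4 ± 1.6 in Dex and 6.97 ± 0.74 in EtOH libraries (SD, n = 3 each), a difference of 0.71 ± 0.13 (log2, SE) with a limma adjusted p of 0.0981. By reads this region passed with each of the 6 libraries left out, with adjusted p between 0.000298 and 0.0139 (limma). By fold it passed in none of 16 alternatives, with adjusted p between 0.0887 and 0.411.

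The other 3 passed less firmly. A second region on chromosome 3 (chr3:130935687-130936049), chosen after its values were seen, held 54, 31 and 56 reads in Dex libraries, against 18, 20 and 22 in EtOH libraries, with a difference of 1.25 ± 0.24 (log2, SE; limma adjusted p = 0.0114). It passed in 2 of the 6 fits without 1 library, with adjusted p up to 0.112. A region on chromosome 12 (chr12:25801367-25801818) held 60, 51 and 42 reads in Dex libraries, against 23, 32 and 25 in EtOH libraries, with a difference of 0.96 ± 0.21 (log2, SE; limma adjusted p = 0.0319). A region on chromosome 2 (chr2:23824958-23825417), also chosen after its values were seen, held 62, 60 and 60 reads in Dex libraries, against 28, 35 and 40 in EtOH libraries, with a difference of 0.88 ± 0.19 (log2, SE; limma adjusted p = 0.0319). The regions on chromosomes 12 and 2 each passed in 1 of the 6 fits without 1 library, with adjusted p up to 0.207 and 0.195. None of these 3 passed when reads were centred on their median in place of quantile normalisation, with adjusted p of 0.105, 0.206 and 0.131 (limma). In each of the 3 the Dex and EtOH values did not overlap.

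By fold the next lowest p with Dex higher belonged to a region on chromosome 7 (chr7:11871291-11872058), which held 50, 63 and 44 reads in Dex libraries, against 30, 35 and 31 in EtOH libraries. Its backgrounds were alike, at 3.86 to 4.14 in Dex and 3.86 to 3.98 in EtOH libraries. The fold difference was 0.67 ± 0.13 (log2, SE) with a limma adjusted p of 0.122. With Dex lower, the region of lowest p was on chromosome 10 (chr10:33798105-33798593), which held 23, 19 and 21 reads in Dex libraries, against 34, 35 and 44 in EtOH libraries. Its fold difference was −0.71 ± 0.13 (log2, SE; limma adjusted p = 0.0981). Regions on chromosome 6 (chr6:21006075-21006416) and chromosome 4 (chr4:177909381-177909802) had 17 to 20 and 14 to 18 reads in Dex libraries, against 27 to 35 and 24 to 32 in EtOH libraries. Their limma adjusted p were 0.126 and 0.182. All 3 regions that were lower in Dex had backgrounds at the lowest value in the 3 Dex libraries, and neither treatment overlapped the other there.

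**Figure D5:**
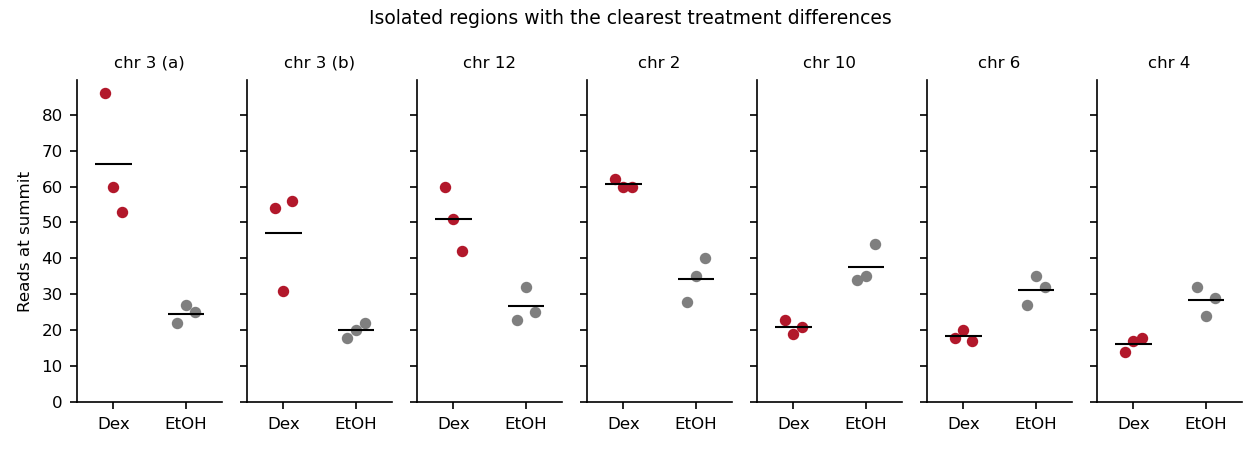
Summit reads per library (points) and group means (lines) in 3 Dex and 3 EtOH libraries at 7 isolated regions, the 4 that passed by reads, higher in Dex (chromosomes 3, 3, 12 and 2), and the 3 of lowest p by fold with Dex lower (chromosomes 10, 6 and 4). In each panel the Dex and EtOH points do not overlap, and the last 3 did not pass an adjusted p of 0.05 by fold, summit reads or −log10 q over all 6 libraries with no replicate block.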

How the data were processed

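DNase-seq peak lists of 3 Dex and 3 EtOH A549 libraries were analysed, 58281 to 61344 peaks per library in hg19 coordinates, given here counting from 1. CASAVA 1.3, Bowtie, bedtools and MACS2 2.1.0 are named per the submitters' processing notes, while their roles and settings are not given in the sources used here. The deposited fold enrichment is a ratio at each summit over a background that the authors' peak caller estimated per library. The authors' p-values and q-values were deposited as −log10, and a score following 10 times the −log10 q was deposited too and not used.

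Peaks sharing at least 1 bp were merged. In each library a region took the fold, summit, summit reads and background of its peak of highest fold. Its −log10 q was the highest among its peaks. Summit reads and backgrounds were recovered from fold and p under the formula of MACS2, which the deposited columns follow but do not name, and are called reads on that basis. They carry counting error, and reads that are PCR copies cannot be told from separate molecules. Comparisons of region sets used library medians and an exact sign-flip permutation test over libraries. Treatments were compared with exact permutation tests over libraries and, per region, with limma 3.58.1 (R 4.3.3) on quantile-normalised log2 values of all constitutive regions with Benjamini-Hochberg adjustment and a threshold of 0.05. No value was imputed. Python 3.11.15, numpy 2.4.6 and pandas 2.3.3 were used, and the steps were tested on simulated data. Equal library numbers were not taken as pairs, as 1 of the 3 same-number correlations of deviations was below 0.1.

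The members, lists and tests were chosen with earlier results of these data known. Named regions are the 10 most isolated, the 10 highest and 6 lowest by mean fold percentile, the 6 widest, the 3 of lowest p in each direction by fold, and those passing by summit reads, which were added after their values were seen. The comparison with regions spaced 10 to 100 kb, the set without a region within 10 kb and the summit reads were also added after seeing the data. Genome sequence and gene annotation of hg19 were not used here, so the planned motif, promoter and gene list parts were not run, and no gene or sequence is given. Other assays of the study were not analysed here.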

Additional observations from a re-analysis of the deposited data

How the results depend on the processing

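The number of isolated regions was 5092 with a limit of 50 kb and 667 with 200 kb, and stayed within 1.5 times of 1917 under the other alternatives, leaving out each library included. The excess in fold percentile over the other constitutive regions, 4.35 points, was 1.62 at 200 kb (exact p = 0.125) and 2.87 to 4.56 without 1 library. There the exact p was 0.125 without Dex 1 and 0.0625, the smallest that 5 libraries allow, in the other 5 cases. It reversed to −11.7 by −log10 q, −22.1 by summit reads, −4.40 against regions spaced 10 to 100 kb and −6.67 where neither set had a region within 10 kb (exact p = 0.03125 each). The width difference of 3.5 bp was 10.4 bp at 50 kb (exact p = 0.03125), and reversed to −0.5 at 200 kb, −6.0 bp on autosomes alone, −11.3 bp against regions spaced 10 to 100 kb and −20.0 bp where neither set had a region within 10 kb (exact p = 0.03125). Without 1 library it ran from −11.1 to 0.40 bp, reversed in 5 of 6 cases (−11.1 without Dex 1, −6.9 without Dex 2, −3.8, −2.8 and −3.4 without EtOH 1, 2 and 3). The summit distance, 2.17 bp, was 2.30 to 2.75 bp without 1 library (exact p = 0.0625, the smallest possible). Covered bases by treatment, 0.0043 Mb more in Dex, reversed to −0.0246 Mb without Dex 2 and −0.0072 Mb without EtOH 1 (range −0.0246 to 0.0335). The 0 isolated regions passing by fold became 1 at 50 kb, 3 by −log10 q and 4 by summit reads, and the 11 constitutive regions passing became 106 and 122 by these measures, 0 with percentiles in place of log2 fold, 4 with lists of one length and 0 to 6 without 1 library. By summit reads the 122 became 67 when median-centred and 38 to 147 without 1 library. The causes of these changes were not tested.

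With the replicate block, 0 isolated regions and 21 constitutive regions passed by fold, and 14 isolated regions (11 higher in Dex) and 375 constitutive regions passed by summit reads. The share of isolated regions at an unadjusted p under 0.05 by fold was then 10.2%. The share over all constitutive regions was not computed with the block, and the 7.14% given earlier comes from the fit without it. An excess at isolated regions can therefore not be read from 10.2%. Same-number correlations were 0.17, 0.09 and 0.12, and each library correlated best with its own number, a hint from the data and not from the design. The block changed no other call. Of 108 values for named treatment differences under alternatives, 104 kept their side of the threshold and 4 passed it.

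Low counts limit what single regions can show. The lowest isolated region of a library had 12 or 13 summit reads, and the total depth is unknown. A region absent from a list had not passed the caller's threshold, which does not show that it was closed, so isolation depends on that threshold. Distances of the most isolated regions rest on calls in single libraries, as the values without 1 library show.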
